A study of Arabidopsis thaliana with 102 samples.

Results

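The transcriptome of wild-type Arabidopsis thaliana (accession Col-0) was examined at the end of a 6 h treatment with tunicamycin (Tm), against its solvent control dimethyl sulfoxide (DMSO). The members were the 3 Tm and the 3 DMSO RNA-seq libraries of Col-0 labelled 0 h, which are 6 of the 54 RNA-seq libraries and of the 102 samples in the series. In the study, 5-day-old seedlings of Col-0 and of the mutants bzip28-2 and bzip60-2 were kept in liquid half-strength LS medium with 500 ng/mL Tm or with DMSO, moved to plates without the drug, and collected whole at 0, 12 and 24 h of recovery. Each replicate pooled 12 seedlings, and each of the 18 combinations of genotype, treatment and time had 3 biological replicates. No seedling of the 0 h groups had been on the recovery plates, so these libraries hold the state at the end of the treatment itself. The question they answer is which transcripts differ between Tm and DMSO before recovery starts.

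Tm blocks the first step of N-linked glycosylation, so that glycoproteins fail to fold in the endoplasmic reticulum (ER) and the unfolded protein response (UPR) starts. In plants one branch of the UPR uses IRE1, an ER membrane ribonuclease that splices the bZIP60 mRNA into the form that encodes the active transcription factor. The other branch uses bZIP28, a membrane-bound transcription factor that moves to the Golgi, is cut there by proteases and enters the nucleus. Both factors are known to bind the ER stress response element ERSE-I in promoters of chaperone genes.

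Values are FPKM, the number of sequenced fragments of a gene scaled by its exon length and by the mapped fragments of the library. Of 34133 listed genes, 21864 had an FPKM over 1 in at least 1 of the 54 libraries and were tested with limma on log2(FPKM + 1). A gene was called differentially expressed (DEG) if its log2 fold change exceeded 1 in size and its adjusted p was below 0.01. Log2 fold changes below are Tm over DMSO on this scale, which understates the change of weakly expressed genes, and are given ± SE. Fold values are ratios of mean FPKM. The 6 libraries had FPKM sums of 863262 to 918448, and the 10 most abundant genes took 7.46% to 9.21% of them. Read totals were not used here, and the steps between low FPKM values put the relative depth of the libraries within 1.00 to 1.32. The lowest correlation of log2 values within a group was 0.984 for Tm and 0.972 for DMSO, and correlations between the groups were 0.962 to 0.973. The 9 genes of the steady list, such as actins and ubiquitins, had log2 fold changes of −0.10 to 0.30, and none was called.

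Tm gave 208 DEGs, 0.951% of the genes tested. Of these, 137 were higher with Tm (0.627%) and 71 were lower (0.325%), while the median log2 fold change of all genes was 0. Without the DEG threshold, 4028 genes had an unadjusted p under 0.05, and the 3 Tm values and 3 DMSO values did not overlap in 5254 genes (24.0%). With 3 replicates a side, the count depended on each library. Without DMSO replicate 2 or 3 there were 91 and 85 DEGs, and without Tm replicate 1, 2 or 3 there were 88, 61 and 38, whereas no DEG changed sign. The 137 raised genes were led by the machinery of the secretory pathway. The 9 lists of ER folding, quality control and vesicle coat genes held 47 of them (34.3% of the raised DEGs) among 120 tested genes, and 0 of the 71 lowered genes. Of these 47 calls, between 20 and 40 were kept when 1 library was left out, and the 20 were those kept without Tm replicate 3.

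The largest log2 fold change was that of BIP3 (AT1G09080), the stress-inducible form of the ER chaperone BiP. BIP3 had 628, 711 and 625 FPKM with Tm, against 2.15, 2.00 and 2.15 FPKM with DMSO. All 3 Tm libraries were far above every DMSO library. The ratio of means was 312 and the log2 fold change was 7.72 ± 0.07 (limma, adjusted p = 3.4e-06).

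The next 2 genes by log2 fold change act in vesicle export. SAR1A (AT1G09180), a small GTPase that starts assembly of the COPII coat on the ER, had 154, 197 and 179 FPKM with Tm, against 0.794, 0.900 and 1.07 FPKM with DMSO. SEC31B (AT1G18830), a subunit of the outer COPII coat, had 101, 119.8 and 106 FPKM with Tm, against 0.148, 0.213 and 0.276 FPKM with DMSO. Both genes were barely expressed without Tm. Their treatments did not overlap, which the rule for naming the largest changes required. The ratio of means was 192 for SAR1A and 513 for SEC31B, above the ratio of BIP3 in the case of SEC31B. Their log2 fold changes were 6.53 ± 0.11 (adjusted p = 4.5e-05) and 6.50 ± 0.09 (adjusted p = 2.5e-05). AT4G21730 is a transcribed pseudogene in the annotation used here, which gives it no product name. It had 272, 303 and 321 FPKM with Tm, against 2.04, 2.08 and 6.02 FPKM with DMSO, a log2 fold change of 6.21 ± 0.35. TIN1 (AT5G64510), annotated as tunicamycin induced protein, had 183, 211 and 195 FPKM with Tm, against 1.91, 3.49 and 2.57 FPKM with DMSO, a log2 fold change of 5.77 ± 0.17.

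**Figure D1:**
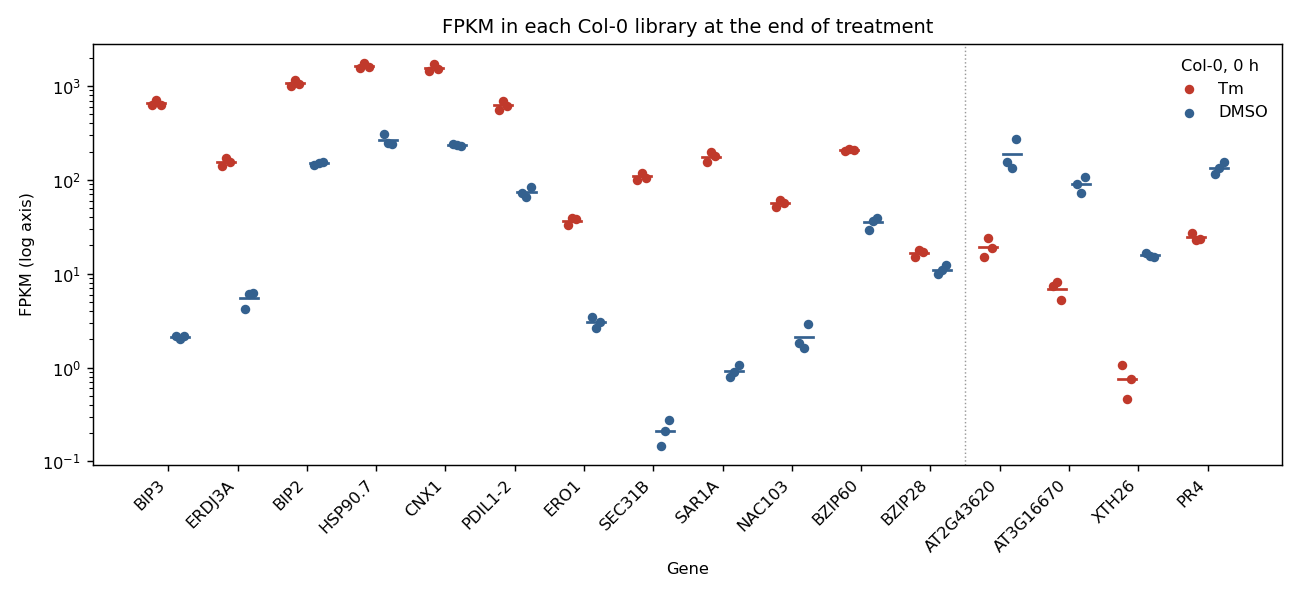
FPKM of each of the 3 Tm (left in each pair) and 3 DMSO libraries of Col-0 at 0 h on a log axis, for 11 raised genes, BZIP28, which was not called, and 4 lowered genes. Points are libraries and short lines are means. The 3 Tm values of BIP3 lie between 625.4 and 711.1 FPKM, above all 3 of its DMSO values at about 2 FPKM.

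The promoters of 6 raised genes are shown because they carry the elements discussed with the peaks below. They are stretches of the RefSeq genome TAIR10.1 upstream of the annotated gene start, written 5′ to 3′ on the strand of the gene. Capitals mark the fixed bases of ERSE-I (CCAAT and CACG with any 10 bases between them) and the motif TGACGTG in either orientation, which is the core of the UPR element UPRE-I. BIP3 is from chr1:2931878-2931997 (minus strand), PDIL1-2 from chr1:29126533-29126647 (plus strand), HSP90.7 from chr4:12556059-12556131 (minus strand), P58IPK from chr5:749991-750100 (plus strand), CRT1 from chr1:21092710-21092828 (minus strand) and SEC31B from chr1:6489065-6489184 (plus strand).
BIP3: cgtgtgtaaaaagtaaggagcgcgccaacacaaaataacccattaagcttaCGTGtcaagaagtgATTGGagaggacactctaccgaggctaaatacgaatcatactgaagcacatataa
PDIL1-2: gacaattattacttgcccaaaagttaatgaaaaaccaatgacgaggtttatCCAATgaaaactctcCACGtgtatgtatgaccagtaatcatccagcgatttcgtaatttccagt
HSP90.7: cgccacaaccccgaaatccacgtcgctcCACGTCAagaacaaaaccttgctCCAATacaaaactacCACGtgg
P58IPK: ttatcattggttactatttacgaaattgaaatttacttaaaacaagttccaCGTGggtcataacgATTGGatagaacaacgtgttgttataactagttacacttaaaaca
CRT1: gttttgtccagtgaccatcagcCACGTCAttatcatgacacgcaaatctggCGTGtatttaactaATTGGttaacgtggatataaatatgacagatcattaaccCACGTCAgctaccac
SEC31B: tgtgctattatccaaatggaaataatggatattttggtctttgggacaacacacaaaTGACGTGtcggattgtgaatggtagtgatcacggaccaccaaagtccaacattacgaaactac
In BIP3, P58IPK and CRT1 the ERSE-I runs against the direction of the gene, so that its CCAAT part reads ATTGG and lies nearer to the gene. In PDIL1-2 and HSP90.7 it runs with the gene. The SEC31B stretch holds TGACGTG and no ERSE-I.

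Chaperones of the ER lumen rose nearly as a class, with 10 of 11 tested members called higher, 0 lower and a median log2 fold change of 2.57. BIP2 (AT5G42020) had 1008, 1149.6 and 1040.2 FPKM with Tm, against 146, 152 and 154 FPKM with DMSO, and BIP1 (AT5G28540) had 937, 1074 and 966 FPKM with Tm, against 161, 168 and 168 FPKM with DMSO. These constitutive BiP genes are near-identical copies whose reads cannot be split with certainty, and their log2 fold changes were 2.81 ± 0.08 and 2.57 ± 0.08. Without Tm their FPKM was far above that of BIP3, whereas with Tm all 3 BiP genes were among the strongly expressed genes. HSP90.7 (AT4G24190), the ER form of HSP90, had 1575, 1757 and 1582 FPKM with Tm, against 308, 245 and 243 FPKM with DMSO, a log2 fold change of 2.63 ± 0.12 (adjusted p = 0.00074).

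The DnaJ-type cochaperones that assist BiP differed among themselves. ERDJ3A (AT3G08970) had 139, 172 and 154 FPKM with Tm, against 4.25, 6.15 and 6.30 FPKM with DMSO, a log2 fold change of 4.58 ± 0.16. ERDJ3B (AT3G62600) had 450.2, 494 and 481 FPKM with Tm, against 75.2, 79.4 and 69.0 FPKM with DMSO, and P58IPK (AT5G03160) had 149, 186 and 168 FPKM with Tm, against 28.7, 36.7 and 36.6 FPKM with DMSO. Their log2 fold changes were 2.66 ± 0.07 and 2.27 ± 0.13. Of the translocon-linked pair, ERDJ2B was called at 1.70 ± 0.08 (adjusted p = 0.00074), whereas ERDJ2A, with 47.8, 50.6 and 47.8 FPKM with Tm and 48.4, 47.5 and 48.5 FPKM with DMSO, was the only chaperone of the list not called (log2 fold change 0.02 ± 0.05). The other called members were HSP70-17 (2.50 ± 0.08) and SDF2 (1.90 ± 0.11), which works in a complex with ERDJ3B and BiP. Without Tm replicate 3, 6 of the 10 calls were kept.

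In the calnexin and calreticulin cycle, which retains glycoproteins until they fold, 5 of 6 tested members were called higher and the median log2 fold change was 2.07. CNX1 (AT5G61790), the membrane lectin chaperone, had 1464, 1704 and 1507 FPKM with Tm, against 240.2, 238 and 232 FPKM with DMSO. CRT1 (AT1G56340), a soluble calreticulin, had 765, 809 and 750.1 FPKM with Tm, against 265, 231 and 237 FPKM with DMSO. Both separated fully by treatment, with log2 fold changes of 2.71 ± 0.09 and 1.66 ± 0.08. CNX2 (2.76 ± 0.09), CRT2 (2.48 ± 0.10) and EBS1 (1.12 ± 0.05), the glucosyltransferase that returns unfolded glycoproteins to the cycle, were also called. CRT3, which retains the brassinosteroid receptor mutant bri1-9, was not called, with 23.4, 22.5 and 22.8 FPKM with Tm and 37.6, 32.4 and 30.8 FPKM with DMSO, and its log2 fold change was −0.53 ± 0.09 (adjusted p = 0.039). Without Tm replicate 3, 3 of the 5 calls were kept.

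Disulfide formation was split between its members, of which 6 of 15 were called higher and 9 were not called, so that the median of the list was 0.11. ERO1 (AT1G72280), the oxidase that reoxidizes protein disulfide isomerases, had 33.3, 39.0 and 37.9 FPKM with Tm, against 3.45, 2.64 and 3.06 FPKM with DMSO, while its paralog ERO2 had 12.0 to 14.3 FPKM with Tm and 13.4 to 17.8 FPKM with DMSO. The log2 fold change was 3.22 ± 0.11 for ERO1 (adjusted p = 0.00027) and −0.21 ± 0.12 for ERO2 (adjusted p = 0.43). Among the isomerases, PDIL1-2 (AT1G77510) had 558, 699 and 606 FPKM with Tm, against 72.0, 65.8 and 83.4 FPKM with DMSO. PDIL1-2 (3.06 ± 0.12), PDIL2-3 (2.78 ± 0.08), PDIL2-2 (2.62 ± 0.09), PDIL1-1 (2.11 ± 0.11) and PDIL2-1 (1.74 ± 0.09) were called. PDIL2-1 overlaps AT2G47480 on the other strand, which was also called. PDIL1-3, at 1.96 ± 0.21, missed the threshold with an adjusted p of 0.011, and the remaining 7 isomerases lay between −0.24 and 0.11.

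Of 12 tested regulators of the UPR, 5 were called higher. BZIP60 (AT1G42990), the IRE1 substrate, had 205, 216 and 208 FPKM with Tm, against 29.6, 36.9 and 39.4 FPKM with DMSO (log2 fold change 2.55 ± 0.11, adjusted p = 0.00066). The FPKM of the gene does not separate the spliced from the unspliced mRNA. NAC103 (AT5G64060), a transcription factor downstream of bZIP60, had 51.1, 61.8 and 56.2 FPKM with Tm, against 1.83, 1.61 and 2.92 FPKM with DMSO (log2 fold change 4.22 ± 0.18). The membrane-bound factors NAC089 (2.29 ± 0.12) and NAC062 (51.7 to 52.8 FPKM with Tm, against 11.8 to 16.1 FPKM with DMSO) and the cell death suppressor BI1 (2.86 ± 0.21) were called as well. Of the 5 calls, 3 were kept without DMSO replicate 3, Tm replicate 1 or Tm replicate 2, and 1 without Tm replicate 3.

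The sensors IRE1 and bZIP28 were not called. BZIP28 (AT3G10800) had 14.9, 17.7 and 17.3 FPKM with Tm, against 9.93, 10.9 and 12.3 FPKM with DMSO. Its 3 Tm values were above its 3 DMSO values, but the log2 fold change of 0.55 ± 0.11 did not pass the test (adjusted p = 0.064). IRE1A had 12.7, 13.2 and 12.8 FPKM with Tm, against 11.5, 11.9 and 12.3 FPKM with DMSO (0.11 ± 0.06, adjusted p = 0.43). IRE1B (0.22 ± 0.13), BZIP17 (0.06 ± 0.10) and the Golgi proteases S1P (0.13 ± 0.08) and S2P (0.18 ± 0.11) were not called either.

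ER-associated degradation (ERAD), which sends misfolded proteins to the proteasome, had 7 of 16 tested members called higher, with a median of 0.46. HRD1B (AT1G65040), an ER membrane ubiquitin ligase, had 254, 272 and 278 FPKM with Tm, against 27.9, 33.6 and 35.4 FPKM with DMSO, a log2 fold change of 3.02 ± 0.10. Its paralog HRD1A had 11.4, 10.6 and 11.9 FPKM with Tm and 7.00, 11.8 and 9.24 FPKM with DMSO, with 0.28 ± 0.18 (adjusted p = 0.49). The same unevenness held for HRD3A (1.87 ± 0.05), which was called, and HRD3B (0.37 ± 0.15), which was not. The derlins DER2.1 (2.64 ± 0.14) and DER1 (2.17 ± 0.12), the lectin OS9 (2.17 ± 0.12), EBS7 (1.75 ± 0.09) and the ubiquitin-conjugating enzyme UBC32 (1.73 ± 0.10) were called. Of the 7 calls, 4 were kept without DMSO replicate 3, and 2 without Tm replicate 2 or Tm replicate 3.

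Protein entry into the ER had 6 of 16 tested members called higher, with a median of 1.13. SEC61B2 (AT3G60540), a beta subunit of the translocon channel, had 265, 322 and 278 FPKM with Tm, against 30.2, 24.5 and 27.9 FPKM with DMSO (log2 fold change 3.34 ± 0.11). SEC61A2 (2.45 ± 0.13), SEC61G2 (1.44 ± 0.13), SEC61B1 (1.36 ± 0.14) and the signal peptidase subunits SPCS3A (1.82 ± 0.12) and SEC11A (1.28 ± 0.08) were also called. Of the 6 calls, 2 were kept without DMSO replicate 1, 2 or 3, and 4, 3 and 1 without Tm replicate 1, 2 and 3. For N-glycosylation, the step that Tm inhibits, 1 of 11 tested members was called. It was GPT1 (AT2G41490), the UDP-GlcNAc:dolichol phosphate transferase that is the target of Tm itself, with 34.2, 42.6 and 42.3 FPKM with Tm, against 8.46, 12.3 and 10.7 FPKM with DMSO (1.83 ± 0.16, adjusted p = 0.0052). GPT1 overlaps AT2G41500 on the other strand, and its call was lost when any 1 of the 6 libraries was left out. The other 10 members, such as the oligosaccharyltransferase subunit STT3A (0.95 ± 0.14), were not called. Among them was GPT2 (AT3G57220), the GPT gene listed beside GPT1. It had 17.16 to 19.96 FPKM with Tm and 12.08 to 17.21 FPKM with DMSO, so its treatments overlapped and the rise was seen for GPT1 alone.

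For COPII export from the ER, 5 of 19 tested members were called higher, and all 19 had a log2 fold change above 0 (median 0.51). Beside SAR1A and SEC31B these were YIP1A (AT2G36300), a Yip1 family membrane protein, with 84.2, 109 and 99.2 FPKM with Tm, against 16.6, 24.0 and 27.9 FPKM with DMSO (2.07 ± 0.21), and SEC24B (1.61 ± 0.13) and SEC23A (1.14 ± 0.10). The paralog SEC31A had 91.7, 107 and 101 FPKM with Tm and 67.9, 66.8 and 74.9 FPKM with DMSO (0.51 ± 0.08, adjusted p = 0.038). For the COPI coat of retrograde transport, 2 of 14 were called. COPBP3 (AT3G15980), a beta-prime subunit, had 279.6, 304 and 273 FPKM with Tm, against 45.1, 41.5 and 41.3 FPKM with DMSO (2.71 ± 0.07), and COPA1 was at 1.38 ± 0.11. The other 12 coat genes lay between 0.02 and 0.27. SAR1A and SEC31B kept their calls without any 1 library, whereas of the 5 COPII calls 3 were kept without DMSO replicate 1 and 2 without each other library. Of the 2 COPI calls, 1 was kept without each library other than DMSO replicate 1.

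**Figure D2:**
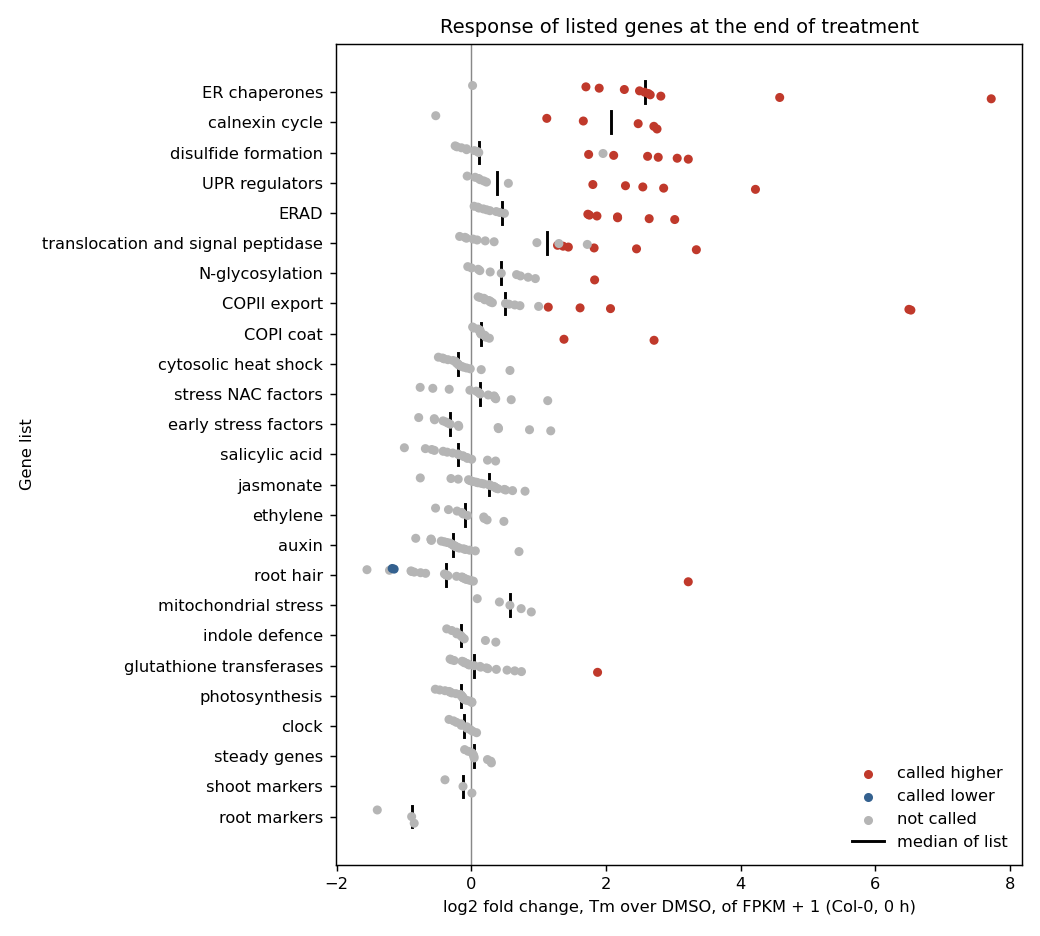
Log2 fold change (Tm over DMSO, FPKM + 1) of every tested gene of the secretory and comparison lists in Col-0 at 0 h. Each point is 1 gene, red called higher, blue called lower and grey not called, and black lines are medians. Of the ER chaperones 10 of 11 are called, with BIP3 at 7.72. The heat shock, hormone and photosynthesis lists have no called gene, which is near the 0.951% of all genes tested.

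Among further raised DEGs, 4 of 11 tested p24 cargo receptors were called (this family was picked after the values were seen), together with AT1G27330, a RAMP4-type ribosome-associated membrane protein (2.37 ± 0.15), the UDP-galactose transporter genes AT2G02810 (2.75 ± 0.14) and AT1G14360 (2.73 ± 0.12), the glucosamine-fructose-6-phosphate aminotransferase GFAT (2.25 ± 0.10) and NF-YC2 (2.03 ± 0.21), a subunit of the CCAAT-binding NF-Y complex. These were chosen after their values were seen, and 0.627% of all genes tested were called higher. By the rule for named genes, AT3G55700, a UDP-glycosyltransferase, stood at 3.23 ± 0.08, and AT3G51980, an ARM repeat protein that overlaps a gene on the other strand, stood at 3.16 ± 0.07. AT2G29263 and the small nucleolar RNA SNOR105 were listed at 0 in all 3 DMSO libraries, so no fold is given. AT2G29263 had 30.2, 29.6 and 9.95 FPKM with Tm and overlaps the raised genes AT2G29260 and AT2G29270, and SNOR105 had 11.2, 12.3 and 10.6 FPKM. At 12 h SNOR105 had 0, 0 and 11.6 FPKM with Tm, and 11.7, 10.3 and 25.7 FPKM with DMSO. Its values step between 0 and about the size seen with Tm at 0 h, so its call may rest on very few fragments per library. In all, 52 DEGs overlap another annotated gene, and whether the FPKM used strand is not given in the sources used here.

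The other lists had no calls or few at this time. Those of cytosolic heat shock (17 tested genes), stress NAC factors (15), early stress factors (13), salicylic acid (16), jasmonate (23), ethylene (10), mitochondrial stress (5), indole defence (9), auxin (20), photosynthesis (19) and the clock (10) had 0 DEGs in either direction, which is near the 0.951% of all genes tested and so no result about these lists. Their medians lay between −0.31 for early stress factors and 0.57 for mitochondrial stress, beside 0 for all genes. WRKY33, at 0.86 ± 0.06, passed the adjusted p (limma, 0.0033) but not the fold threshold. Of 19 glutathione transferases, GSTU22 was called, with 36.8, 56.9 and 49.8 FPKM with Tm, against 12.2, 10.9 and 13.3 FPKM with DMSO (1.87 ± 0.17).

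Of the 71 lowered genes, the lowest log2 fold change was that of AT3G16670, a Pollen Ole e 1 and extensin family protein, which had 7.32, 8.23 and 5.19 FPKM with Tm, against 89.6, 72.6 and 108 FPKM with DMSO (−3.52 ± 0.21, adjusted p = 0.0015). XTH26 (AT4G28850), a xyloglucan endotransglucosylase/hydrolase that remodels the wall, had 1.06, 0.463 and 0.760 FPKM with Tm, against 16.8, 15.3 and 15.2 FPKM with DMSO (−3.26 ± 0.14). The chitinase family gene AT2G43620 had 15.2, 23.8 and 18.7 FPKM with Tm, against 155, 135 and 271 FPKM with DMSO (−3.17 ± 0.30). In each of the 3 genes, every Tm library was far below every DMSO library.

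The pathogenesis-related gene PR4 (AT3G04720) had 27.5, 22.9 and 23.4 FPKM with Tm, against 115, 135 and 154 FPKM with DMSO (−2.40 ± 0.13). XTH13 (−2.65 ± 0.20), the basic chitinase gene HCHIB (−2.39 ± 0.21) with its antisense RNA AT3G12502 (−2.45 ± 0.17), AT3G16660 (−2.31 ± 0.23), the Casparian strip protein gene CASP2 (−2.27 ± 0.24) and the dirigent-like AT2G39430 (−2.22 ± 0.11) followed. The last of the 15 lowest were AT4G28940 (−2.16 ± 0.13), AT2G37130 (−2.16 ± 0.13), AT4G22666 (−2.14 ± 0.11), AT5G64120 (−2.07 ± 0.17) and PRXCB. Reads of HCHIB and of AT3G12502 cannot be told apart if strand was not used. By families, picked after the values were seen, 13 of 63 tested class III peroxidases were lowered and 0 raised (median −0.53), as were 3 of 24 xyloglucan enzymes, 4 of 28 arabinogalactan proteins, 4 of 20 dirigent-like proteins, 3 of 37 members of the UPF0497 family, 3 of 20 Pollen Ole e 1 proteins, 2 of 19 chitinases and 1 of 23 expansins. Together they made up 33 of the 71 lowered DEGs (46.5%). Of all genes tested, 0.325% were lowered. As the families were picked on these values, the counts are a description of them. The peroxidase PRXCB (AT3G49120) had 22.2, 25.4 and 27.5 FPKM with Tm, against 98.9, 125 and 118 FPKM with DMSO (−2.14 ± 0.12). These calls rested on few replicates. Without DMSO replicate 2 or 3, or Tm replicate 1, 2 or 3, 3, 1, 2, 0 and 0 of the 13 peroxidase calls were kept.

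In the root hair list, 2 of 23 tested genes were lower and 1 was higher. EXPA18, a root hair expansin, had 8.91, 9.82 and 11.6 FPKM with Tm, against 22.7, 25.9 and 22.1 FPKM with DMSO (−1.15 ± 0.12), and ADF8, an actin depolymerizing factor, had at most 16.5 FPKM with Tm, against at least 30.6 FPKM with DMSO (−1.18 ± 0.11). COW1, a phosphatidylinositol transfer protein needed for root hairs, and LRX1, a wall protein of root hairs, had log2 fold changes of −0.90 ± 0.11 and −0.75 ± 0.12 and were not called (adjusted p = 0.017 and 0.038). The raised member was ETC1 (AT1G01380), a single-repeat MYB factor known to act in root hair and trichome patterning, with 31.0, 30.5 and 29.0 FPKM with Tm, against 3.13, 2.11 and 1.89 FPKM with DMSO (3.22 ± 0.15, adjusted p = 0.00073). ETC1 overlaps AT1G01390 on the other strand.

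All 3 root markers were lower in every Tm library than in any DMSO library, although none was called. In 24.0% of all genes tested the groups did not overlap, in either direction. The beta-glucosidase gene PYK10 had 834, 964 and 705 FPKM with Tm, against 2251, 2325 and 1984 FPKM with DMSO (−1.40 ± 0.15, adjusted p = 0.012), and COBL9 and EXPA7 were at −0.89 ± 0.14 and −0.85 ± 0.25. The shoot markers LHCB3, RBCS1A and RCA were at −0.39 ± 0.13, −0.12 ± 0.37 and 0.01 ± 0.18. The samples are whole seedlings, so fewer cells of a type and less RNA per cell cannot be told apart, and the part of root content in the lowered genes was not tested.

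The response at 0 h was set against those at 12 and 24 h of recovery, which come from other libraries. Of the 137 raised genes, 106 (77.4%) were called higher at 12 h, when 7.18% of all genes were, and they made up 6.75% of the 1570 genes raised then. At 24 h, 99 (72.3%) were called higher, when 7.39% of all genes were, or 6.13% of 1616. Both times called 97 of them, and 29 were called at neither. Their median log2 fold change was 1.87 at 0 h, 1.96 at 12 h and 1.52 at 24 h. BIP3 had 339, 414 and 364 FPKM with Tm, against 0.948, 0.840 and 1.03 FPKM with DMSO at 12 h, and 300.1, 322 and 348 FPKM with Tm, against 0.577, 0.873 and 0.324 FPKM with DMSO at 24 h. Both treatments were lower than at 0 h, and the ratio of means was 312 at 0 h, 397 at 12 h and 547 at 24 h. On the log2(FPKM + 1) scale, where the added 1 weighs on DMSO values this low, the fold changes were 7.72, 7.59 and 7.68.

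Fewer of the lowered genes were called again. Of 71, 13 (18.3%) were called lower at 12 h, when 1.78% of all genes were, and 1 (1.41%) at 24 h, when 3.22% were, while 12 of the 71 were called higher at 12 or 24 h. Their median log2 fold change was −1.58 at 0 h, −0.15 at 12 h and −0.12 at 24 h. PRXCB had 1780.2, 1655 and 1994 FPKM with Tm at 24 h, against 256, 239 and 219 FPKM with DMSO at 24 h, the opposite order of its values at 0 h.

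**Figure D3:**
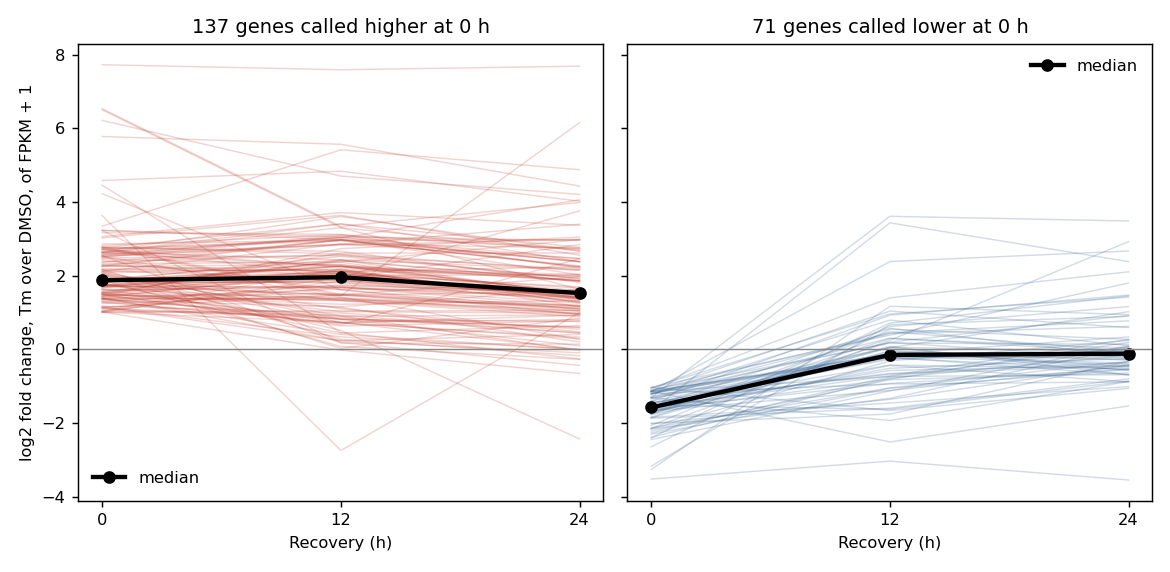
Log2 fold change (Tm over DMSO, FPKM + 1) of the 137 raised and 71 lowered DEGs of 0 h at 0, 12 and 24 h in Col-0. Each line is 1 gene and the thick line is the median, which is 1.87, 1.96 and 1.52 for the raised genes and −1.58, −0.15 and −0.12 for the lowered genes.

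An interaction of treatment and time tested whether the response itself changed. Between 12 h and 0 h, 5719 genes (26.2%) differed at an adjusted p under 0.05, of which 4253 (19.5%) had a higher value at 12 h and 1466 (6.71%) a lower one. With median-ratio scaling the split was 2948 and 2755, as the median difference of all genes was 0.10 on the values as deposited and −0.04 after scaling. Of the 208 DEGs, 127 differed. The raised genes had 31 responses higher and 37 lower at 12 h, and the lowered genes had 58 higher and 1 lower. With median-ratio scaling the raised genes had 19 higher and 42 lower, and the lowered genes 53 higher and 1 lower. Between 24 h and 0 h, 6467 genes (29.6%) differed, 4092 (18.7%) higher and 2375 (10.9%) lower at 24 h, and 134 DEGs among them, with 13 higher and 60 lower for the raised genes and 61 higher and 0 lower for the lowered genes. The DEGs were chosen on the 0 h libraries that also enter these differences, so the counts are a description of that set.

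SEC31B, SAR1A, ETC1 and NAC103 were among the genes with the lowest adjusted p for a smaller response at 12 h. SEC31B had 11.0, 10.2 and 12.1 FPKM with Tm at 12 h, against 0.453, 0.187 and 0.0742 FPKM with DMSO at 12 h, and 2.33, 2.05 and 2.84 against 0.0858, 0.108 and 0.101 FPKM at 24 h. NAC103 had 4.94, 4.77 and 6.03 FPKM with Tm at 12 h, against 1.29, 0.940 and 0.882 FPKM with DMSO at 12 h. Every Tm library of 12 h was far below every Tm library of 0 h for both genes. The difference of log2 fold changes, 12 h minus 0 h, was −3.20 ± 0.17 for SEC31B, −3.20 ± 0.19 for SAR1A, −3.04 ± 0.26 for ETC1 and −2.61 ± 0.22 for NAC103 (adjusted p = 1.1e-06, 2.2e-06, 2.1e-05 and 2.1e-05). AT4G20000, a VQ motif protein gene lowered at 0 h, differed by 5.10 ± 0.19 (adjusted p = 2.3e-07), as its log2 fold change was −1.67 at 0 h and 3.43 at 12 h. For PRXCB the difference at 24 h was 5.06 ± 0.16 (adjusted p = 5.9e-08).

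Some of the lists with 0 DEGs or 1 DEG at 0 h had more called genes later, whereas the steady genes and root markers had 0 at each time and the clock had 0 at 12 h and 2 higher and 1 lower at 24 h. The steady genes still had a median log2 fold change of 0.35 at 12 h, against 0.04 at 0 h. Of these 9 genes, 4 had a higher response at 12 h by the interaction, when 19.5% of all genes did. The salicylic acid list had 10 of 16 called higher at 12 h and 13 at 24 h, the early stress factors 10 and 8 of 13, indole defence 7 and 6 of 9, and glutathione transferases 10 and 12 of 19. Heat shock genes had 4 and 4 of 17 called higher, stress NAC factors 4 and 8 of 15, ethylene 5 and 3 of 10 and mitochondrial stress 3 and 4 of 5. The jasmonate list had 2 higher and 3 lower of 23 at 12 h and 9 higher and 1 lower at 24 h, and the auxin list had 2 higher of 20 at 12 h and 1 higher and 4 lower at 24 h. Of 19 photosynthesis genes, 2 were lower at 12 h and 18 at 24 h. These counts stand beside the backgrounds of 7.18% and 7.39% higher and 1.78% and 3.22% lower.

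The response was also compared with that of the mutants at 0 h. In the 6 libraries labelled bzip28-2 the FPKM of BZIP28 was 24.6, 25.8 and 28.6 with Tm and 25.0, 23.0 and 26.1 with DMSO, against 14.9, 17.7 and 17.3 with Tm and 9.93, 10.9 and 12.3 with DMSO in Col-0. In the libraries labelled bzip60-2, BZIP60 had 116, 119 and 95.4 FPKM with Tm and 33.4, 31.2 and 37.8 FPKM with DMSO, against 205, 216 and 208 with Tm and 29.6, 36.9 and 39.4 with DMSO in Col-0. FPKM counts reads over the whole gene and does not show whether a full-length mRNA is made, so the targeted genes check neither label. The 6 Col-0 libraries enter both mutant comparisons, whose values are given side by side. The DEGs were chosen on these same libraries, which favours a smaller response of the raised DEGs in a mutant. The counts and medians of DEGs below are therefore a description of that set.

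In the mutant libraries labelled bzip28-2, the 137 raised genes of Col-0 had a median log2 fold change of 1.94, and 110 were called higher, when 0.938% of all genes were. In those labelled bzip60-2 the median was 1.47 and 92 were called higher, when 0.512% of all genes were. The median in Col-0 was 1.87. Of the 71 lowered genes, 38 were called lower in libraries labelled bzip28-2, when 0.581% of all genes were, and 22 in those labelled bzip60-2, when 0.338% were. The interaction of treatment and genotype was passed by 8 genes for bzip28-2 (0.0366%), 6 with a higher response (0.0274%) and 2 with a lower one (0.00915%), and by 16 genes for bzip60-2 (0.0732%), all 16 with a lower response in the mutant. At an unadjusted p under 0.05 there were 1810 and 1386 genes.

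For bzip60-2, 15 of the 16 were raised DEGs of Col-0. SEC31B had 1.85, 1.79 and 1.06 FPKM with Tm in libraries labelled bzip60-2, against 101, 119.8 and 106 FPKM in Col-0, while its DMSO values were 0.151, 0.362 and 0.219 FPKM in libraries labelled bzip60-2 and 0.148, 0.213 and 0.276 FPKM in Col-0. NAC103 had 10.3, 10.4 and 8.23 FPKM with Tm in libraries labelled bzip60-2, against 51.1, 61.8 and 56.2 FPKM in Col-0. ETC1 had 2.49, 3.01 and 3.80 FPKM with Tm in libraries labelled bzip60-2, against 31.0, 30.5 and 29.0 FPKM in Col-0. In these 3 genes the mutant Tm values were far below those of Col-0. The difference of log2 fold changes, bzip60-2 minus Col-0, was −5.47 ± 0.19 for SEC31B, −3.42 ± 0.25 for ETC1, −2.88 ± 0.23 for NAC103 and −2.14 ± 0.21 for SAR1A (adjusted p = 1.7e-06, 0.00091, 0.0011 and 0.0037). BIP3, at 7.22 in libraries labelled bzip60-2 and 7.72 in Col-0, was not among them. Without Tm replicate 3 of Col-0, 9 genes passed, all among these 15.

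For bzip28-2, the 5 raised DEGs that differed were CRT1, ERDJ3B, SEC31B, AT2G29260 and AT2G25460. CRT1 had 327, 359.6 and 319.7 FPKM with Tm in libraries labelled bzip28-2, against 765, 809 and 750.1 FPKM in Col-0, a difference of −1.12 ± 0.13 (adjusted p = 0.035). ERDJ3B had 205, 207 and 201 FPKM with Tm in libraries labelled bzip28-2, against 450.2, 494 and 481 FPKM in Col-0, a difference of −1.15 ± 0.13. Both were lower in the mutant in all 3 Tm libraries. SEC31B went the other way, with 285, 357 and 305 FPKM with Tm in libraries labelled bzip28-2, against 101, 119.8 and 106 FPKM in Col-0 (1.22 ± 0.15). None of these 5 DEGs was kept when any 1 Col-0 library of 0 h was left out. Without DMSO replicate 1, 2 or 3 of Col-0, 1, 2 and 4 genes passed, and without Tm replicate 1, 2 or 3, 5, 5 and 1 did.

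**Figure D4:**
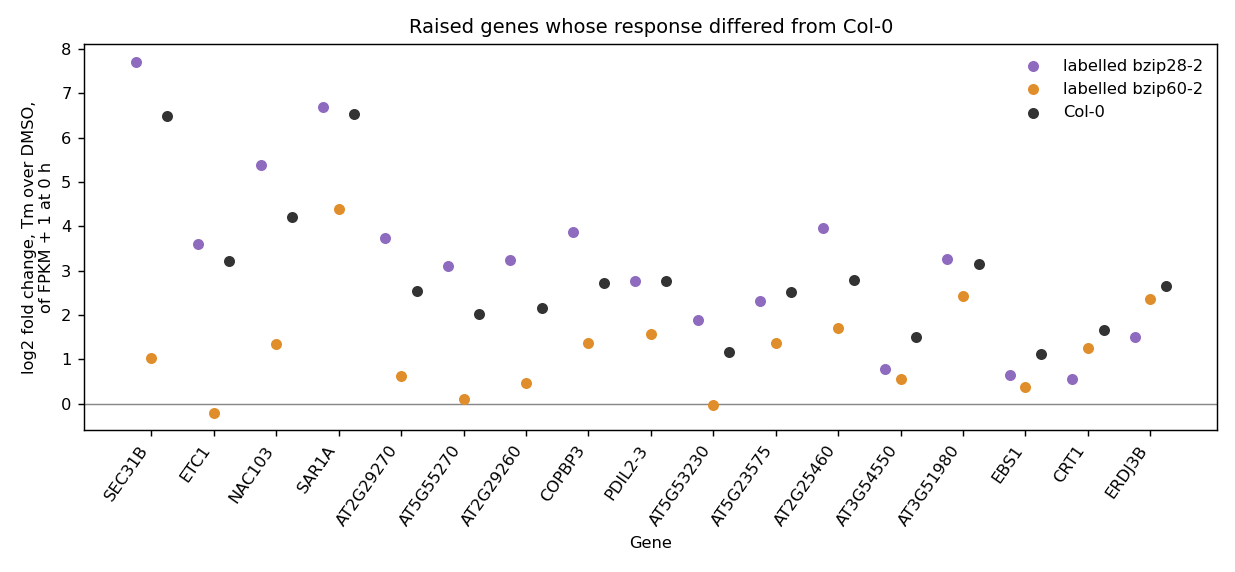
Log2 fold change (Tm over DMSO, FPKM + 1) at 0 h for raised genes whose response differed between a mutant and Col-0, in libraries labelled bzip28-2, bzip60-2 and Col-0 from left to right. Points are fitted values. SEC31B stands at 7.72, 1.03 and 6.50.

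The peaks of GFP-tagged bZIP28 and bZIP60 at 0 h came from other plants, one line carrying a 35S-driven fusion in Col-0 and the other a bZIP60 promoter fusion in bzip60-2, and were kept where 2 replicates gave them. There were 130 bZIP28 peaks and 250 bZIP60 peaks. The authors had removed Tm peaks that overlapped a peak of DMSO-treated seedlings, except those that were much stronger with Tm. A bZIP28 peak was assigned to 43 of 137 raised genes (31.4%), against 0.375% of all genes tested, and a bZIP60 peak to 63 (46.0%), against 0.901%. Either factor was at 74 (54.0%), against 1.06% of all genes tested. Both were at 32 (23.4%), against 48 of all genes tested. No lowered gene had a peak of either factor, which is near the 1.06% of all genes tested and so no result about the lowered genes. Read by peak class, 32 of 48 genes with both peaks were raised, 11 of 34 with bZIP28 alone, 31 of 149 with bZIP60 alone and 63 of 21633 with neither. The study lists fewer unduplicated reads for both bZIP28 ChIP libraries with Tm at 0 h than for either of bZIP60. Whether this lowered the number of bZIP28 peaks, and so the classes, was not tested. Among the genes named above, BIP3, HSP90.7, CNX1 and CRT1 had both peaks, P58IPK and HRD1B had bZIP28 alone, SAR1A, SEC31B and NAC103 had bZIP60 alone, and TIN1, ETC1 and UBC32 had none.

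Promoters were searched in both orientations over 1000 bases upstream of the gene start in 135 raised, 71 lowered and 21627 tested genes. ERSE-I was found in 30 raised promoters (22.2%), in 0 lowered promoters and in 337 of all promoters (1.56%). A shorter window, used for ERSE-I alone, ran from 250 bases upstream to 50 bases past the gene start. It held a match in 35 raised (25.9%), 0 lowered and 226 of all promoters (1.04%). TGACGTG was in 36 raised (26.7%), 8 lowered (11.3%) and 7.42% of all promoters. TCATCG, the letters of UPRE-III, was in 31.1% of raised, 28.2% of lowered and 29.0% of all promoters. ERSE-II, searched as ATTGG and CACG with any 2 bases between them, was in 0 raised and 0 lowered promoters and in 78 of all (0.361%). In a narrower form, with C as the last base between them, it was in 0 raised promoters and in 28 of all (0.129%). In 15 of the 30 raised promoters with ERSE-I there was also a TGACGTG, and in 6 the matches shared a base. A match is a description of the letters and not a binding site.

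Positions were taken from the longer window, which ended at the gene start, so matches past the start were not counted. Within it, the ERSE-I matches of the raised genes were close to the gene start. Among 34 matches the median position of the middle of the match was 81.5 bases upstream, and 31 (91.2%) lay within 300 bases, against 59.2% of the matches of all promoters. Of the 34, 24 lay inside a bZIP28 peak and 24 inside a bZIP60 peak. The BIP3 matches lay 53 and 131 bases from the centre of their bZIP28 peak. From the centre of their bZIP60 peak they lay 1437.5 and 1515.5 bases away. Among the peaks themselves, 31 of 130 bZIP28 peaks (23.8%) and 40 of 250 bZIP60 peaks (16.0%) held an ERSE-I. In bZIP28 peaks 31 of 33 matches lay within 100 bases of the peak centre, and in bZIP60 peaks 26 of 42 did, with median distances of 32 and 62.2 bases. The bZIP60 peaks were also wider, with a median width of 542.5 bases against 430 for bZIP28. Distances were not scaled by width. BIP3 and RBOHB are neighbours that face away from each other and share both of their matches, which are counted for each gene, as is the match between AT3G51980 and AT3G51990.

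**Figure D5:**
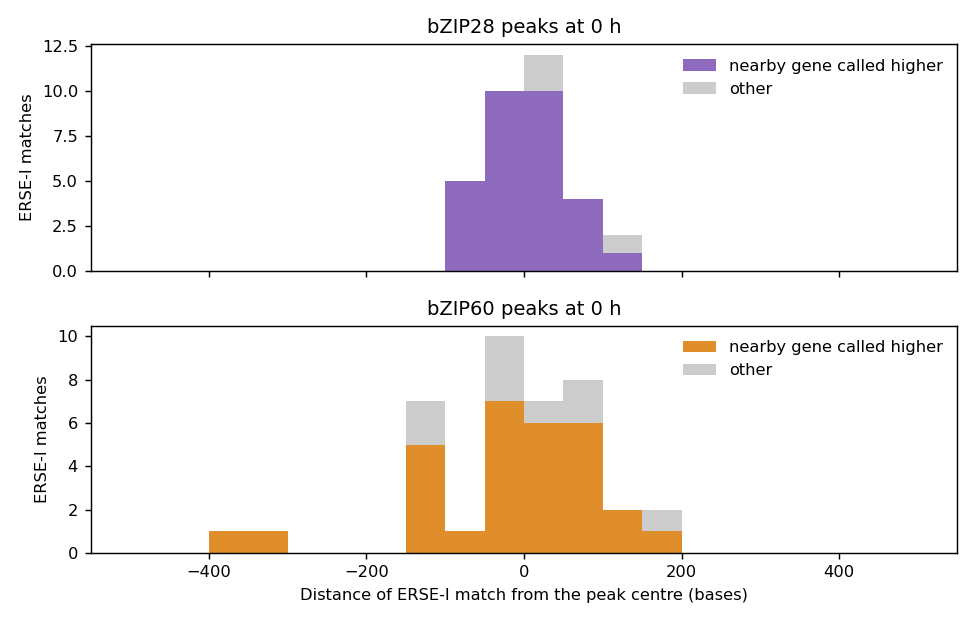
Distance in bases of each ERSE-I match from the centre of the bZIP28 or bZIP60 peak that holds it, at 0 h. Bars count matches, coloured where the nearby gene was called higher and grey otherwise. The 33 bZIP28 matches centre near 0, while the 42 bZIP60 matches spread wider, and 3 bZIP60 matches beyond 500 bases are not drawn. Median peak widths are 430 bases for bZIP28 and 542.5 for bZIP60.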

How the data were processed

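RNA was taken from whole seedlings, and strand-specific libraries were sequenced. The submitters' processing notes name TopHat2 2.0.14, Bowtie2 2.2.4 and Cufflinks 1.3.0. The deposited values are FPKM, which the authors made with Cufflinks on TAIR10. Their DESeq2 test on read counts could not be repeated on FPKM, so log2(FPKM + 1) was tested with limma 3.58.1 (R 4.3.3, mean-variance trend, Benjamini-Hochberg adjustment over 21864 genes). Responses were compared by an interaction term over 12 libraries. The deposited peak scores are MACS2 2.1.2 signal values, which the authors made after mapping with Bowtie 1.1.2 by calling peaks in each sample and keeping those reproduced between 2 replicates. Peaks were placed on RefSeq TAIR10.1, and 274 of 276 peaks near a gene had that gene's start within 1000 bases. On simulated data with 200 changed genes of log2 fold change 1.5, 148 were recovered and 0 others were called.

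Members and lists were chosen with earlier results of these data known. Named genes were the 15 largest changes in each direction among DEGs whose 3 Tm and 3 DMSO values did not overlap, the listed genes, genes the study followed by name, and the 5 lowest adjusted p in each direction of each response comparison. The ERSE-II letters were set to the study's spelling after a narrower form had been counted. Alternatives were another pseudocount, scaling, filters, thresholds, fits, a replicate block and leaving out each library. P-values measure the spread between the 3 biological replicates. Exact permutation of 3 against 3 cannot go below 0.1 and was not used.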

Additional observations from a re-analysis of the deposited data

Results flagged for a closer look

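The response of 127 of the 208 DEGs differed between 12 h and 0 h in Col-0, and that of 134 differed between 24 h and 0 h, by limma's interaction term. Between bzip28-2 and Col-0 at 0 h it differed for 5 DEGs, and between bzip60-2 and Col-0 for 15.

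For bzip28-2 minus Col-0 the difference of log2 fold changes was 1.22 for SEC31B, 1.19 for AT2G25460 and 1.08 for AT2G29260, and it was −1.12 for CRT1 and −1.15 for ERDJ3B. For bzip60-2 minus Col-0 it was −5.47 for SEC31B, −3.42 for ETC1, −2.88 for NAC103, −2.14 for SAR1A, −1.93 for AT2G29270, −1.92 for AT5G55270, −1.69 for AT2G29260, −1.35 for COPBP3, −1.21 for PDIL2-3, −1.19 for AT5G53230, −1.15 for AT5G23575, −1.08 for AT2G25460, −0.96 for AT3G54550, −0.74 for AT3G51980 and −0.73 for EBS1. SEC31B, AT2G29260 and AT2G25460 stand in both lists with opposite signs, and both comparisons share the Col-0 libraries. The DEGs were also chosen on these libraries. Groups of 3 libraries were not tested for single outlying values.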

How the results depend on the processing

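No DEG changed sign under any setting, and of the DEGs whose response differed at 24 h the difference of 1 changed sign with a pseudocount of 0.1. In place of 208 DEGs (137 higher, 71 lower), there were 118 (89 and 29) with no filter on low values, 316 with 134 lower at a mean FPKM of at least 1, 382 with 178 lower in one fit over 54 libraries, and 352 with 155 lower at an adjusted p under 0.05. Leaving out 1 library gave 38 to 152 DEGs, with 36 to 104 higher and 2 to 48 lower. For bzip28-2, 5 genes differed with a pseudocount of 0.1, 4 after median-ratio scaling and 1 to 5 without 1 library. For bzip60-2, 10 differed after scaling and 9 to 20 without 1 library. Leaving out 1 library gave 4752 to 6198 genes for 12 h and 5399 to 6257 for 24 h. The share of raised genes with a bZIP28 peak was 21.2% for the peaks with the higher scores, against 0.192% of all genes tested. ERSE-I with 1 mismatch was in 43.7% of raised, 5.63% of lowered and 13.4% of all promoters. The cause was not tested.

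In Col-0 at 0 h, deviations of same-numbered Tm and DMSO libraries correlated at 0.11, −0.08 and 0.03. Those of different numbers correlated at −0.19 to 0.15. At 12 h same numbers gave 0.05 to 0.11 and different numbers −0.09 to 0.02, so every same-numbered value was the higher. At 24 h the ranges were −0.04 to 0.06 and −0.11 to 0.13. In libraries labelled bzip28-2 they were −0.15 to 0.07 and −0.22 to 0.23. In those labelled bzip60-2 they were −0.27 to 0.01 and −0.12 to 0.22. The study describes recovery plates split between Tm-treated and DMSO-treated seedlings. The replicate numbers were not taken to pair the samples, although the values at 12 h do not exclude pairing there. With the replicate block there were 3 DEGs, 3 higher and 0 lower, and 1 gene each for bzip28-2 and bzip60-2, 5489 for 12 h and 6125 for 24 h. Depth limits the genes listed near 0 FPKM.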

Other observations

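Some DEGs lie next to each other. Among 17 pairs of neighbouring DEGs within 5000 bases, 16 had the same direction. In 4 of the 17 the genes overlap on opposite strands and may share reads, and all 4 had the same direction. These pairs were looked for after the values were seen. UBC32 (1.73) and AT3G16990 (1.55) start 37 bases apart and face away from each other, as do SEC11A (1.28) and AT1G52590 (1.34) at 153 bases and AT3G51980 (3.16) and AT3G51990 (1.40) at 205 bases. BIP3 (7.72) and RBOHB (1.48), a respiratory burst oxidase gene, are 889 bases apart. The pair in opposite directions was AT2G25460 (2.78) and RLP21 (−1.23). Values are log2 fold changes of Tm over DMSO. No share expected for neighbours was computed.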
